A study of Mus musculus with 27 samples.

Results

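Among 241938 nuclear barcodes from the hippocampi of 27 mice, 18225 passed a gate for CA1 pyramidal neurons, and 820 of those carried at least 2 unique molecules (UMIs) of Dcn, the gene for the proteoglycan decorin. These 820 nuclei, 4.5% of the CA1 nuclei and 0.34% of the 241266 nuclei that passed the quality limits, are called high-Dcn CA1 nuclei here. A nucleus entered the CA1 gate with 200 to 8000 detected genes, at most 5% mitochondrial UMIs, at least 1 UMI of Slc17a7 or Camk2a (genes of excitatory neurons), and at least 5 of 8 CA1 panel genes detected (Galntl6, Fibcd1, Pde11a, Adam12, Ror1, Man1a, Gm10754 and Gm26905). It was kept only with at most 1 UMI of Prox1 (granule cells), at most 1 of Gad1 and Gad2 together (inhibitory neurons) and at most 1 of Mog and Mag together (oligodendrocytes). The 17405 nuclei that passed the same gate with 0 or 1 Dcn UMI are the low-Dcn CA1 nuclei. Because Dcn and the other gate genes chose the members, their values in the 2 classes are given as a description, without a test.

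The libraries came from mice 8 to 10 months of age, each a single-nucleus RNA library of 1 frozen hippocampus preparation, in 6 genotype groups. Of these, 3 groups lacked the P301S transgene and were labelled Cgas+/+ (5 mice), Cgas+/- (2 mice) and Cgas-/- (2 mice), and the other 3 carried it and were labelled P301S Cgas+/+, P301S Cgas+/- and P301S Cgas-/- (6 mice each). P301S is a mutant human tau placed under the mouse Prnp promoter and is expressed widely in the nervous system of this line, not in CA1 alone. Cgas encodes a sensor of DNA in the cytosol and was absent from every cell of the Cgas-/- mice by design. The groups held both sexes except the Cgas+/- and Cgas-/- groups without P301S, which were male.

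CA1 pyramidal neurons are the output cells of the hippocampal circuit, and they differ along the long axis of the hippocampus, from the dorsal pole, which is tied to spatial memory, to the ventral pole, which is tied to anxiety and social behaviour. Decorin is a small leucine-rich proteoglycan of the extracellular matrix that binds collagen and growth factors of the TGF-beta family. In most of the brain Dcn is a gene of meningeal and perivascular fibroblasts, but ventral CA1 pyramidal neurons are known to express it as well.

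Libraries held 7246 to 14770 barcodes and 46091490 to 79484316 UMIs, and gave 115 to 1292 CA1 nuclei per mouse. The level of Cgas, listed under its older symbol Mb21d1, did not follow the genotype labels: its median over all nuclei was 1.37 counts per 1000000 UMIs (CPM) in the libraries labelled Cgas+/+, 1.89 in those labelled Cgas-/-, 2.08 in P301S Cgas+/+ and 1.85 in P301S Cgas-/-. A 3' count can come from transcript outside a deleted part, so Mb21d1 checks nothing about the deletion. Gm43049, a long non-coding gene that is on in libraries with the transgene, ran from 0 to 0.0855 CPM in the libraries labelled without P301S and from 3.12 to 18.1 CPM in those labelled with it. Of 234470 barcode sequences, 7324 occurred in more than 1 library, including those of 55 high-Dcn nuclei, and none was a high-Dcn nucleus in more than 1 library.

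Dcn was sparse even where it was detected. Of the CA1 nuclei, 16415 held no Dcn UMI, 990 held 1, 402 held 2, 281 held 3 or 4 and 137 held 5 or more, up to 11 in a single nucleus. Just inside the threshold are thus the 402 nuclei with 2 UMIs, and just outside it the 990 with 1. Dcn lies on chromosome 10 (chr10:97479609-97518143, plus strand, GRCm38), and its summed level was 215 CPM in high-Dcn nuclei and 4.28 CPM in low-Dcn nuclei. In classes that should lack the gene, Dcn UMIs were found in 0.706% of inhibitory nuclei (0.868 CPM, median depth 9579 UMIs) and 0.925% of dentate granule nuclei (1.27 CPM, median depth 8660 UMIs), against 5.69% of low-Dcn CA1 nuclei (median depth 12439 UMIs). Nuclei with fibroblast markers held Dcn at 119 CPM, with a UMI in 22.6% of them at a median depth of 2892 UMIs. This class took nuclei with at least 3 of 10 fibroblast markers and was not cleared of other non-neuronal types such as choroid plexus. It held Htr2c at 4593 CPM, with a UMI in 21.6% of nuclei. It may be a mixture, so its levels are not those of pure fibroblasts.

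High-Dcn nuclei were slightly deeper than low-Dcn nuclei, with medians of 13529 and 12439 UMIs and of 3821 and 3503 detected genes. For this reason the comparison of the 2 classes and its interaction with genotype were repeated against 2432 low-Dcn nuclei matched on depth, whose median was 13537.5 UMIs. The depth-matched comparison tested 8165 genes, against 10541 with all low-Dcn nuclei, so some genes named below have no depth-matched value. Nuclei ranked as likely doublets made up 9.88% of the high-Dcn nuclei, 7.54% of the low-Dcn nuclei and 7.41% of all nuclei. In the high-Dcn class, 316 nuclei had over 4000 detected genes.

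Of the 4 marker genes chosen on these data for ventral-type CA1 neurons, Dcn, Pde11a and Galntl6 belong to the gate and only Adamtsl1 does not, and the levels of all 4 are a description. Adamtsl1, which encodes a secreted glycoprotein of the ADAMTS-like family (chr4:85514172-86428385, plus strand), was detected in 90.2% of high-Dcn and 53.5% of low-Dcn nuclei, with summed levels of 760 and 258 CPM. Pde11a, a cyclic nucleotide phosphodiesterase, stood at 434 CPM in high-Dcn nuclei and 163 CPM in low-Dcn nuclei. Galntl6, a glycosyltransferase family gene, went the other way, at 2531 CPM in high-Dcn and 4782 CPM in low-Dcn nuclei, and was lower in high-Dcn nuclei in each of the 16 mice compared. Granule nuclei held Galntl6 at 195 CPM and inhibitory nuclei at 5266 CPM. Of the other 6 panel genes in the gate, Ror1, Adam12, Gm10754 and Gm26905 were also lower in high-Dcn nuclei in 16 of 16 mice, Fibcd1 was lower in 13, and Man1a was lower in 9 and higher in 7.

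The levels of 5 genes outside the gate are set out by the number of Dcn UMIs in a nucleus, as a description. They were picked from the comparison of the 2 classes below or from lists chosen with these data known. A difference across the threshold of 2 UMIs was therefore fixed by the choice of genes. The levels are pooled over mice with unequal shares of high-Dcn nuclei. In CA1 nuclei with 0, 1, 2, 3 or 4, and 5 or more Dcn UMIs, the pooled level of Rgs6 was 63.1, 206, 368, 399.5 and 606 CPM. C1qtnf7 stood at 0.911, 9.73, 29.1, 43.6 and 69.5 CPM over the same classes, and Nnat at 34.3, 112, 139.6, 168 and 170.5 CPM. Chrm3 ran in the opposite direction, at 1670, 560, 340, 239.7 and 245 CPM, and so did Wfs1, at 21.8, 9.50, 7.32, 5.64 and 7.57 CPM. Neither of these 2 genes fell further in the last class. The 990 nuclei with a single Dcn UMI, which count as low-Dcn, therefore lay between the nuclei without Dcn and the high-Dcn nuclei for each of these 5 genes.

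**Figure D1:**
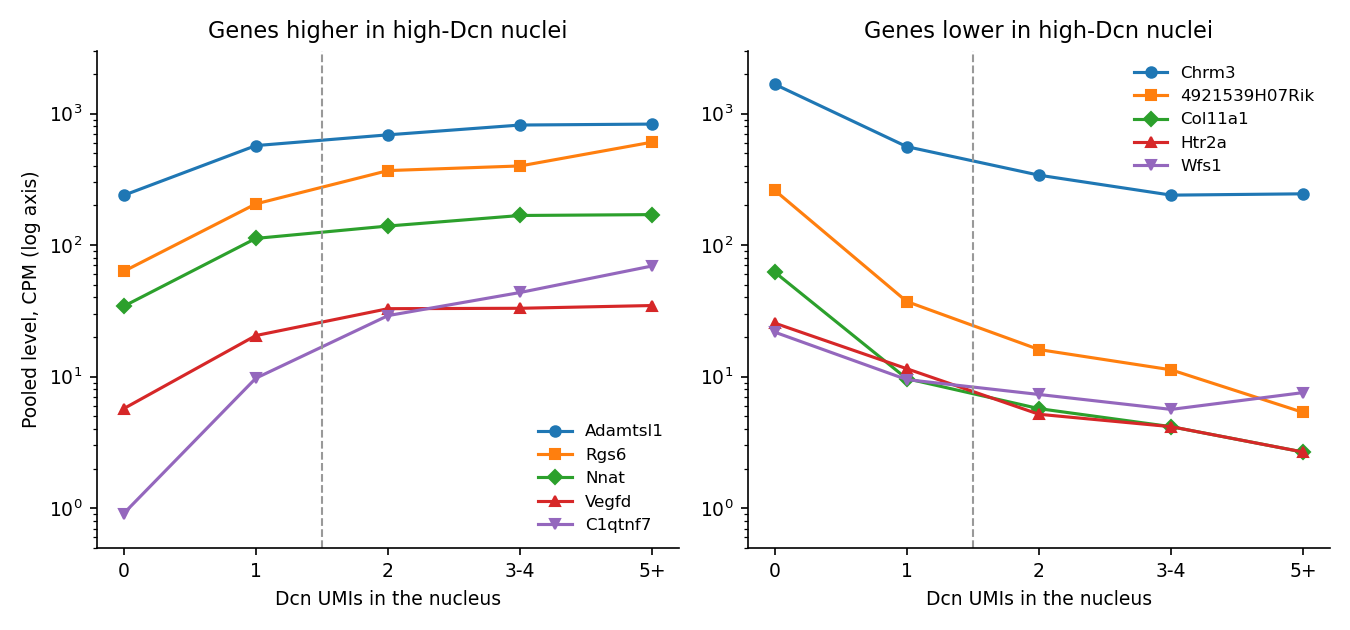
Pooled level in CPM (log axis) of 10 genes against the number of Dcn UMIs in a CA1 nucleus, with genes higher in high-Dcn nuclei on the left and lower ones on the right, and the dashed line is the threshold of 2 UMIs. Points are sums over all nuclei of a class without error bars, and the step from 0 to 1 Dcn UMI moved Rgs6 from 63.1 to 206 CPM and Chrm3 from 1670 to 560.0 CPM.

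The next comparison asked which genes differ between high-Dcn and low-Dcn CA1 nuclei of the same mouse. UMIs were summed per mouse and class in the 16 mice with at least 10 nuclei in both classes, and tested with mouse as a block (quasi-likelihood test of edgeR, Benjamini-Hochberg adjusted p under 0.05 over all genes). The 16 mice were 4 Cgas+/+, 2 Cgas+/-, 2 Cgas-/-, 4 P301S Cgas+/+, 1 P301S Cgas+/- and 3 P301S Cgas-/-. Of 10541 genes tested outside the gate, 1126 (10.7%) were higher and 1204 (11.4%) lower in high-Dcn nuclei, and 1642 were called with the same sign against depth-matched low-Dcn nuclei. Log2 fold changes (high-Dcn minus low-Dcn) are given with their SE, and the median over all genes tested was 0.01. All these values come from the 2 classes of the same libraries, so the nuclei compared share their preparation and sequencing.

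**Figure D2:**
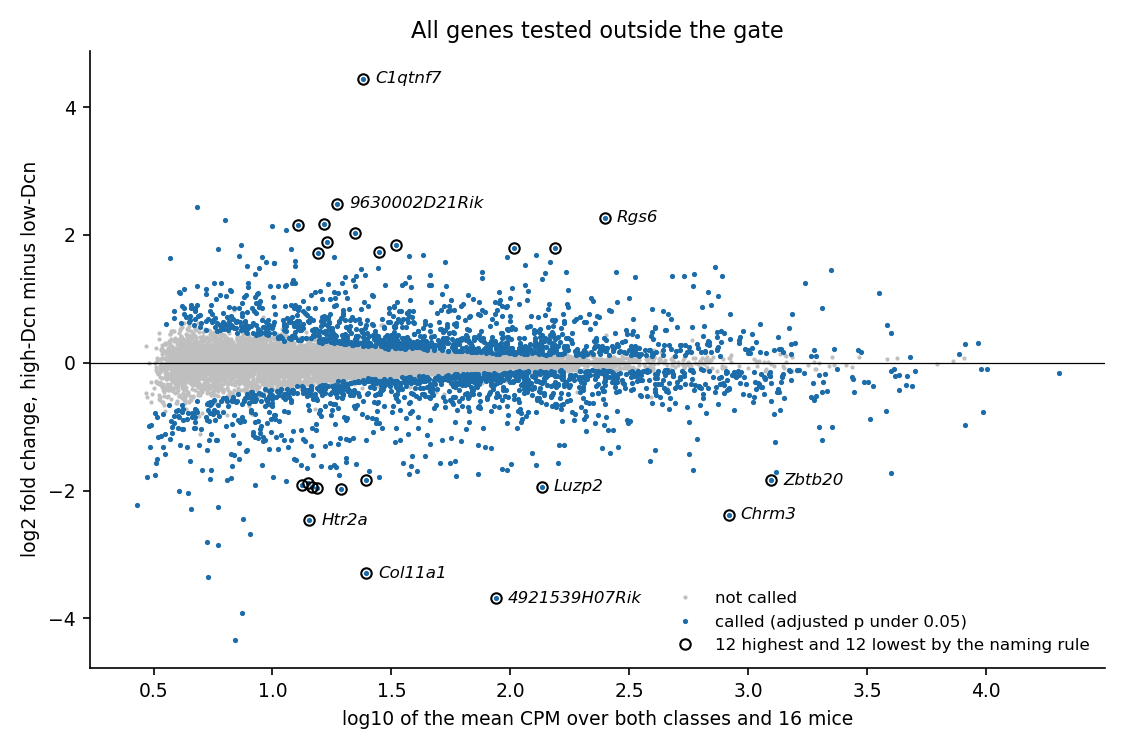
Log2 fold change between high-Dcn and low-Dcn CA1 nuclei against the log10 mean CPM for the 10541 genes tested in 16 mice, with called genes in blue and the 12 highest and 12 lowest by the naming rule circled. C1qtnf7 at 4.44 stands above all other circled genes, and 4921539H07Rik at -3.68 and Col11a1 at -3.29 below.

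The naming rule took genes called against all and against depth-matched low-Dcn nuclei, with at least 10 CPM in the higher class. The highest of these was C1qtnf7 (chr5:43515538-43618803, plus strand), which encodes a secreted protein related to complement C1q and to tumour necrosis factor. Its level ran from 11 CPM through a median of 35.9 to 138 CPM in the high-Dcn nuclei of the 16 mice, and from 0.0604 through 1.54 to 5.31 CPM in the low-Dcn nuclei. The ranges did not overlap, and the log2 fold change was 4.44 ± 0.30 (adjusted p = 5.77e-09, edgeR). A C1qtnf7 UMI was found in 14.6% of high-Dcn and 0.96% of low-Dcn nuclei, so most high-Dcn nuclei held none. C1qtnf7 was also high in fibroblast-marked nuclei (245 CPM, 39.2% of nuclei), and after CA1 nuclei with any fibroblast marker UMI were removed its log2 fold change was 4.65.

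Rgs6, a regulator of G protein signalling (chr12:82588292-83162056, plus strand), ran from 308 CPM through 380 to 656 CPM in high-Dcn nuclei and from 27.1 through 84.4 to 144 CPM in low-Dcn nuclei. Every mouse had the higher level in its high-Dcn nuclei, without overlap between the classes, and the log2 fold change was 2.27 ± 0.16 (adjusted p = 1.02e-08, edgeR). Rgs6 was detected in 75.9% of high-Dcn and 22.7% of low-Dcn nuclei. Inhibitory nuclei held it at 401 CPM, with a UMI in 42.0% of them, beside 424 CPM pooled over the high-Dcn nuclei.

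The receptor genes Adra1a and Oprd1 were also among the 12 highest. Adra1a, an adrenergic receptor that responds to noradrenaline, was higher by 1.80 ± 0.11 (adjusted p = 2.45e-09, edgeR), with 100.1 to 225 CPM in high-Dcn and 19.6 to 80.6 CPM in low-Dcn nuclei and no overlap. Oprd1, the delta opioid receptor, was higher by 1.71 ± 0.12, with 11.2 to 45.3 CPM against 3.59 to 9.58 CPM and no overlap. Both receptors were higher in the high-Dcn nuclei of 16 of 16 mice. Inhibitory nuclei held Adra1a at 174 CPM and Oprd1 at 105 CPM, and granule nuclei held them at 6.37 and 13.0 CPM, beside 164 and 23.3 CPM pooled over the high-Dcn nuclei. Granule nuclei also held Pparg at 43.1 CPM (46.5 in high-Dcn nuclei), and fibroblast-marked nuclei held Plce1 at 264 CPM (48.7) but Adamts18 at 0.81 CPM (25.5). Plce1, a phospholipase C, rose by 1.84 ± 0.12, and Pparg, a nuclear receptor that binds fatty acids, by 1.73 ± 0.16. Others of the 12 were the growth factor Vegfd (2.04 ± 0.17), the metalloproteinase Adamts18 (1.90 ± 0.15) and Mamdc2 (2.15 ± 0.17), together with Galnt14 (1.80 ± 0.15), which adds sugars to secreted proteins. The long non-coding gene 9630002D21Rik (2.49 ± 0.18) and Gm11639 (2.16 ± 0.19) complete the 12, each of them higher in 16 of 16 mice, and the levels of Gm11639, Vegfd, Adamts18, Galnt14 and Pparg overlapped between the classes across mice.

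Chrm3 and Htr2a were among the 12 lowest by the naming rule. Chrm3, a muscarinic acetylcholine receptor (chr13:9875486-10360847, minus strand), ran from 130 CPM through 247 to 418 CPM in high-Dcn nuclei and from 890 through 1204 to 2320 CPM in low-Dcn nuclei. The ranges did not overlap, and its log2 fold change was -2.38 ± 0.13 (adjusted p = 5.82e-10, edgeR). Htr2a, a serotonin receptor (chr14:74640840-74709494, plus strand), ran from 0 through 3.84 to 10.7 CPM against 15.0 through 23.3 to 38.2 CPM, again without overlap, at -2.46 ± 0.20 (adjusted p = 4.16e-11, edgeR). Chrm3 was still detected in 60.5% of high-Dcn nuclei, against 94.3% of low-Dcn nuclei.

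Col11a1 and Bcan were among the 12 lowest too. Col11a1, a fibrillar collagen chain (chr3:114030540-114220718, plus strand), ran from 0 through 2.61 to 16.7 CPM in high-Dcn nuclei and from 10.2 through 45.5 to 90.2 CPM in low-Dcn nuclei, at -3.29 ± 0.21 (adjusted p = 2.31e-11, edgeR). It was lower in every mouse, although the ranges across mice overlapped. Bcan, the perineuronal proteoglycan brevican, fell by 1.96 ± 0.23 on the log2 scale, Clmp, an adhesion molecule, by 1.97 ± 0.23, and Olfml2b by 1.91 ± 0.17. Itpr2, a receptor that releases calcium from internal stores, fell by 1.84 ± 0.19, and Zbtb20, a transcription factor needed for CA1 cell identity, by 1.83 ± 0.08, from a mean of 1917 CPM in low-Dcn to 591 CPM in high-Dcn nuclei. The long non-coding gene 4921539H07Rik (-3.68 ± 0.16), Luzp2 (-1.94 ± 0.27), Tspan18 (-1.94 ± 0.39) and Strip2 (-1.88 ± 0.35) make up the rest. All were lower in 16 of 16 mice except Luzp2 and Strip2 (15 mice each) and Tspan18 (14 mice). Inhibitory nuclei held Htr2a (62.9 CPM, against 24.8 pooled over low-Dcn nuclei), Clmp (144.5 against 39.3), Luzp2 (383 against 248) and Bcan (44.2 against 35.8) at the higher level. Granule nuclei did so for Tspan18 (184 against 19.5), Zbtb20 (4098 against 2037) and Olfml2b (41.7 against 23.9). Chrm3, Col11a1, 4921539H07Rik, Strip2 and Itpr2 were lower in both. Any part of stray RNA in these falls was not tested. Tspan18 and Strip2 were no longer called in the mice carrying P301S alone (-1.25 and -1.36) nor in the libraries of Cell Ranger 3.1.0 alone (-0.95 and -1.16), and Luzp2 not in the mice lacking P301S alone (-1.48).

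**Figure D3:**
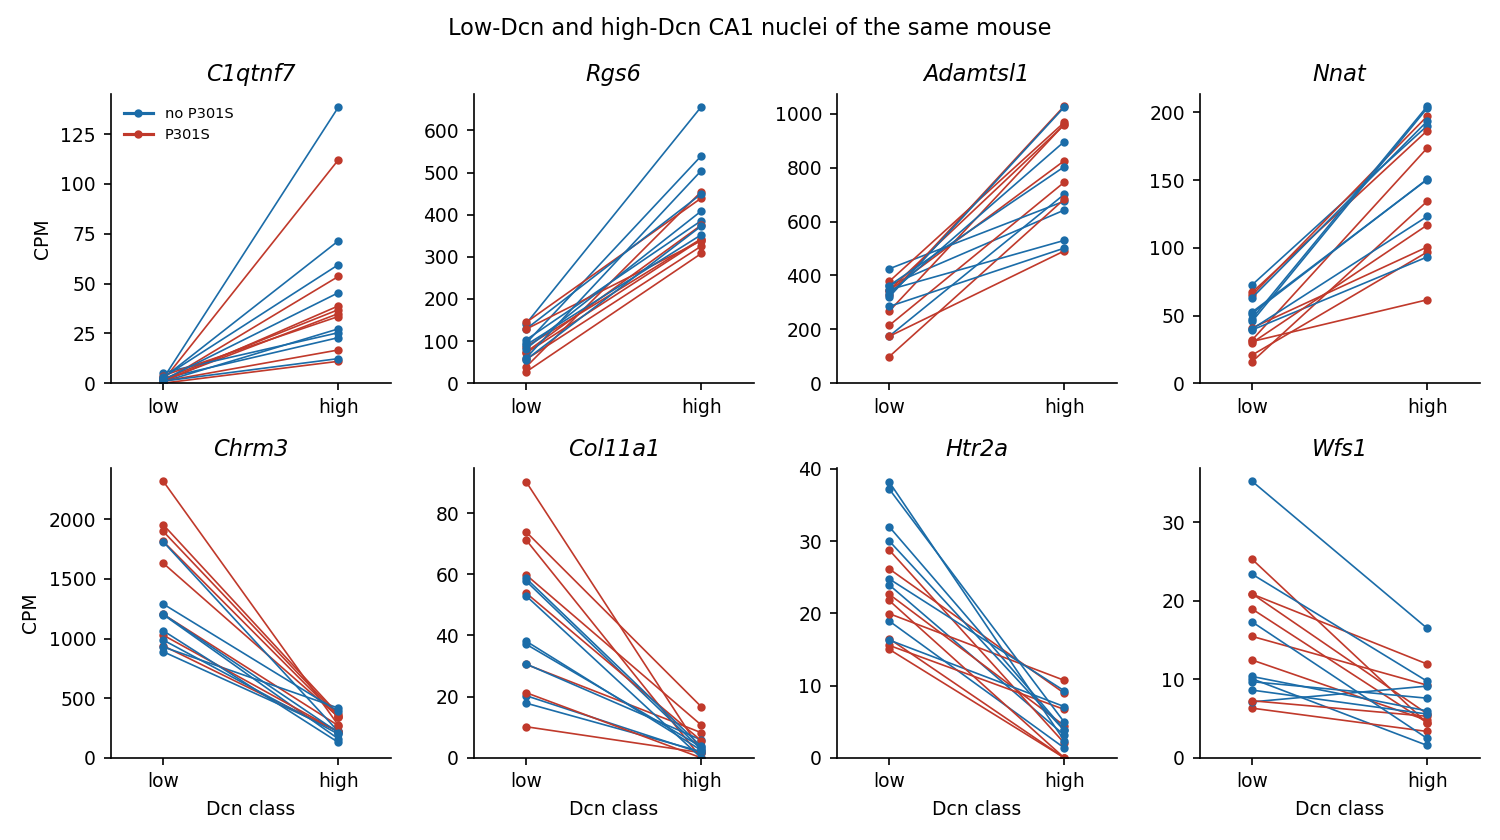
CPM of 8 genes in the low-Dcn and high-Dcn CA1 nuclei of the same mouse, 1 line for each of 16 mice, blue without and red with P301S. C1qtnf7, Rgs6, Adamtsl1 and Nnat rise along every line, Chrm3, Col11a1 and Htr2a fall along every line, and Wfs1 falls in 15 of 16.

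Genes linked to the ventral end of CA1 were mostly higher in high-Dcn nuclei. Of 8 such genes, 7 rose, 1 did not pass and none fell, where 10.7% of all genes tested rose and 11.4% fell, with a median log2 fold change of 1.09 against 0.01 over all genes tested. Adamtsl1 is one of them and was a marker chosen on these data, so that 6 of the other 7 rose, with a median of 1.08. The whole list was chosen with earlier results of these data known, so these counts are no independent check of a ventral type. The level of Adamtsl1 is a description, with 491 through 775 to 1029 CPM in high-Dcn and 98.5 through 329 to 425 CPM in low-Dcn nuclei and no overlap. Nnat, an imprinted gene for a small membrane protein (chr2:157560078-157562522, plus strand), ran from 61.6 through 151 to 204.5 CPM against 15.9 through 43.3 to 72.7 CPM, at 1.66 ± 0.10 (adjusted p = 7.39e-10, edgeR). It was higher in each of 16 mice, and only the highest low-Dcn values reached into the high-Dcn range. The transcription factor Nr2f2 rose by 1.09 ± 0.13, the neuropeptide gene Grp by 1.08 ± 0.19, the glypican Gpc3 by 1.20 ± 0.35, the serotonin receptor Htr2c by 0.65 ± 0.14 and the transcription factor Etv1 by 0.45 ± 0.11. Fibroblast-marked nuclei held Nnat (228 CPM, against 155 pooled over high-Dcn nuclei), Nr2f2 (238 against 26.6), Htr2c (4593 against 194) and Gpc3 (70.3 against 32.0) at the higher level. Adamtsl1, Grp and Etv1 were lower there than in high-Dcn nuclei. Gpc3 was higher in 12 of 16 mice. It was not called without P301S Cgas+/+ replicate 5 (1.11), with at most 4000 genes (1.55) or with 3 UMIs of Dcn required (1.19). In the libraries of Cell Ranger 3.0.2 alone (1.24) and the mice lacking P301S alone (1.32) Gpc3 was not called either. Etv1 was not called against depth-matched nuclei (0.33), with at most 4000 genes (0.44) or in the mice carrying P301S alone (0.45). The libraries of version 3.0.2 (0.39) or 3.1.0 (0.51) alone gave no call for Etv1. The collagen gene Col5a1 stood at -0.34 ± 0.24 (adjusted p = 0.377, edgeR), and passed at -1.05 where high-Dcn nuclei needed 3 UMIs of Dcn.

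Dorsal and general CA1 genes went down or did not pass. Wfs1, the classic marker of dorsal CA1, which encodes a protein of the endoplasmic reticulum (chr5:36966104-36989205, minus strand), ran from 1.58 through 5.59 to 16.5 CPM in high-Dcn nuclei and from 6.32 through 13.9 to 35.2 CPM in low-Dcn nuclei. It was lower in 15 of 16 mice, at -1.20 ± 0.17 (adjusted p = 3.39e-07, edgeR), with overlapping ranges. Spink8, the other dorsal gene tested of 3 listed, stood at -0.12 ± 0.13 and did not pass. Of 5 further CA1 genes, Zbtb20, Ndst4 (-1.05 ± 0.16) and Pou3f1 (-0.96 ± 0.16) fell, 2 did not pass, among them Mpped1 (-0.01 ± 0.05), and none rose. The median of the 5 was -0.96. The counts of both lists stand beside 10.7% higher and 11.4% lower over all genes tested, and both lists were chosen with earlier results of these data known.

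Markers of CA1 and of other cell types were set beside these results as summed levels per mouse. The sum of 12 CA1 markers, which include the 8 panel genes of the gate, was lower in high-Dcn nuclei in 16 of 16 mice. It ran from 3212 through 4643 to 8057 CPM against 4503 through 6937 to 9183 CPM, with a median of 6419 CPM in depth-matched low-Dcn nuclei. The name CA1 thus rests on the gate, and the identity of the class beyond it was not tested. The 10 fibroblast markers, the set most at issue for Dcn and C1qtnf7, totalled 106 UMIs in the high-Dcn nuclei of the 16 mice (1.68 through 7.15 to 27.4 CPM) against 3.96 through 9.49 to 32.1 CPM in low-Dcn nuclei. Of the defining genes, Col1a1 held 8 UMIs in high-Dcn nuclei (0.714 against 0.251 CPM in low-Dcn nuclei), Col1a2 4 (0.357 against 0.2145 CPM), Col3a1 1 (0.0892 against 0.147 CPM) and Slc6a13 0 (0.245 CPM in low-Dcn nuclei). Col1a1 and Col1a2 thus had the higher level in high-Dcn nuclei, on few UMIs, while the sum of the 10 was higher in high-Dcn nuclei in 5 mice and lower in 11. The sum of the 6 subiculum markers was lower in 13 of 16 mice (0 through 87.4 to 336 CPM against 37.0 through 217 to 864 CPM), with 1247 of its 1430 UMIs in high-Dcn nuclei from Tshz2, while pooled Nts (1.52 against 0.944 CPM) and Gpr101 (1.34 against 1.23 CPM) were higher there. The sum of 4 choroid plexus markers was lower in 15 mice. The inhibitory and oligodendrocyte progenitor sums were lower in 13 and 14 mice, and the oligodendrocyte sum spanned 92.9 to 219.9 CPM in high-Dcn and 117 to 243 CPM in low-Dcn nuclei, lower in 9 mice. The astrocyte, microglia, cortical and endothelial sums were lower in 10 or 11 mice, the mural sum was higher in 10, the CA3 sum higher in 9, and the granule and CA2 sums higher in 8 and lower in 8. These sums are carried by abundant genes, and single markers went the other way. Hs3st4 gave 8368 of the 10127 cortical UMIs, whereas 5 of the 7 cortical markers had the higher pooled level in high-Dcn nuclei, namely Cux2 (18.3 against 10.1 CPM), Rorb (36.9 against 20.1 CPM), Fezf2 (21.8 against 13.9 CPM), Rmst (24.4 against 20.2 CPM) and Foxp2 (12.49 against 11.99 CPM). So had the CA2 gene Ntf3 (11.7 against 2.14 CPM), the granule gene Stxbp6 (46.8 against 25.6 CPM), the oligodendrocyte gene Mbp (107 against 76.2 CPM) and the astrocyte genes Slc1a3 (33.6 against 23.8 CPM) and Aqp4 (5.265 against 2.997 CPM). The part of these cell types in the results was not tested. In the fit without nuclei holding fibroblast marker UMIs 103 of the genes named here kept their side of the threshold and 2 lost their call (Ncan and Grik1). A fit without nuclei holding UMIs of the subiculum markers other than Tshz2 kept 96 and lost 5 (Tnr, Mef2d, Ncan, Fkbp5 and Egr1).

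Proteoglycans and decorin's partners moved in both directions. Of 36 listed matrix proteoglycans and their link proteins, 17 were abundant enough to test, and 6 of these rose, 3 fell and 8 did not pass, with a median of 0.10, where 10.7% of all genes tested rose and 11.4% fell. The heparan sulfate carriers Gpc6 (1.42 ± 0.11), Gpc4 (0.56 ± 0.07) and Sdc2 (0.40 ± 0.09) rose together with Gpc3, the receptor-type phosphatase Ptprz1 (1.02 ± 0.06) and the matrix glycoprotein Tnr (0.16 ± 0.04). Bcan, Gpc5 (-1.42 ± 0.13) and Ncan (-0.25 ± 0.08) fell. Fibroblast-marked nuclei held Gpc6 at 1349 CPM and Ptprz1 at 188 CPM, beside 403 and 138 CPM pooled over the high-Dcn nuclei. Among 8 tested of 17 genes for ligands, receptors and matrix partners tied to decorin, the ligand Tgfb2 (1.42 ± 0.16) and the collagen chain Col6a1 (1.33 ± 0.20) rose, the receptor Erbb4 (-0.58 ± 0.17) fell, and the receptors Egfr, Met, Igf1r, Lrp1 and Tgfbr1 did not pass, beside the same 10.7% and 11.4% over all genes. Ncan was not called against depth-matched nuclei (-0.19), by DESeq2 (-0.25), with at most 4000 genes (-0.21), with 3 UMIs of Dcn required (-0.30) or with at least 6 panel genes (-0.23). It was not called either in the mice lacking (-0.20) or carrying (-0.32) P301S alone. Tnr was not called without the filter on low counts (0.08), with 3 UMIs of Dcn required (0.13) or with at least 6 panel genes (0.10). Erbb4 was not called where high-Dcn nuclei needed 3 UMIs of Dcn (-0.48), with at least 6 panel genes (-0.36) or in the mice lacking P301S alone (-0.39).

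Glutamate receptor genes divided by subunit. Of 16 ionotropic subunits tested, 6 rose and 6 fell, with a median of 0.09. The counts of this and the next lists stand beside 10.7% higher and 11.4% lower over all genes tested. Gria4 (1.20 ± 0.06), Grik3 (0.92 ± 0.15) and Grin3a (0.67 ± 0.08) were higher in high-Dcn nuclei, and Grik1 (-0.85 ± 0.26), the principal AMPA receptor subunit gene Gria1 (-0.42 ± 0.04) and Grin2a (-0.34 ± 0.05) lower, where Grik1 lost its call against depth-matched nuclei (-0.74), with at most 4000 genes (-0.40) and with at least 6 panel genes (-0.15). Of the 7 metabotropic receptors, 5 rose, 1 fell and 1 did not pass, with a median of 0.34, among them Grm2 (0.72 ± 0.22) up and Grm5 (-0.31 ± 0.03) down. Of 12 GABA-A receptor subunits, Gabra3 (0.98 ± 0.08) and Gabrg1 (0.82 ± 0.22) were among 4 that rose and Gabra5 (-0.69 ± 0.06) was among 2 that fell.

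Ion channel genes showed the same mixture. Of 40 genes for potassium and hyperpolarization-activated channels and their partners, 14 rose, 15 fell and 11 did not pass, with a median of -0.03, beside 10.7% higher and 11.4% lower over all genes tested. Kcnc4 (1.24 ± 0.15), the channel partner Kcnip1 (1.21 ± 0.14) and Dpp10 (0.96 ± 0.08), which regulates A-type potassium channels, rose. Kcnab1 (-1.68 ± 0.14), Kcnc2 (-1.34 ± 0.08), the leak channel Kcnk2 (-1.24 ± 0.11) and the A-type channel Kcnd2 (-0.88 ± 0.05) fell. Of 21 calcium channel genes 6 rose and 6 fell, including Cacna1c (0.60 ± 0.08) up and the release channels Itpr2 and Ryr3 (-0.60 ± 0.05) down.

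Genes for wiring and adhesion also split. Of 45 axon guidance and adhesion genes tested, 12 rose and 18 fell (median -0.07), beside 10.7% and 11.4% of all genes tested, with the netrin receptor Unc5b (1.24 ± 0.19) and Ntng2 (0.87 ± 0.07) higher, and the semaphorin Sema5a (-1.60 ± 0.27) and the ephrin receptor Epha7 (-1.41 ± 0.16) lower. Sema5a was not called in the mice lacking P301S alone (-1.58). Of 21 cadherins and protocadherins, 9 rose and 5 fell (median 0.23), to be read against the same shares. Pcdh7 (1.49 ± 0.09), Pcdh15 (1.36 ± 0.11), Cdh13 (1.34 ± 0.16) and Cdh20 (1.22 ± 0.13) were higher and Cdh10 (-1.32 ± 0.10) was lower in high-Dcn nuclei.

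Of 12 steroid and stress receptor genes, the estrogen receptor Esr1 (0.58 ± 0.15) and Htr2c rose, 5 did not pass, and 5 fell, where 10.7% of all genes tested rose and 11.4% fell. Those that fell were Htr2a, the serotonin receptor Htr1b (-1.17 ± 0.31), the mineralocorticoid receptor Nr3c2 (-0.38 ± 0.06), the glucocorticoid receptor Nr3c1 (-0.22 ± 0.05) and its cochaperone Fkbp5 (-0.21 ± 0.07). Nr3c1 was not called against depth-matched nuclei (-0.14), and Fkbp5 was not called by DESeq2 (-0.21) or after removal of likely doublets (-0.20), and stood at -0.09 with at least 6 panel genes required, -0.12 in the mice carrying P301S alone and -0.03 in the libraries of Cell Ranger 3.1.0 alone. Esr1 was not called in nuclei with at most 4000 genes (0.39), with 3 UMIs of Dcn required (0.46), in the libraries of Cell Ranger 3.1.0 alone (0.53) or in the mice carrying P301S alone (0.33). Of 12 activity-regulated genes 6 fell, 1 rose and 5 did not pass, with a median of -0.45, to be read against the same shares. Nptx2 (-1.68 ± 0.25), a secreted synaptic pentraxin, the nuclear receptors Nr4a1 (-0.70 ± 0.10) and Nr4a3 (-0.67 ± 0.08) and the synaptic scaffold gene Homer1 (-0.48 ± 0.05) were lower while Fosl2 (0.86 ± 0.12) was higher. Egr1, another of the 6 that fell (-0.48 ± 0.17, adjusted p = 0.0372, edgeR), was not called by DESeq2 (-0.47), in nuclei with at most 4000 genes (-0.40), with 3 UMIs of Dcn required (-0.18), or when any 1 of 8 of the 16 mice was left out (-0.47 to -0.38). Nor was it called in mice lacking P301S alone (-0.16), in the libraries of Cell Ranger 3.0.2 (-0.28) or 3.1.0 (-0.62) alone, or without subiculum-marked nuclei (-0.37).

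Mef2c and other neuronal genes that the study named were read in the same way. Most were named from these same samples, so the choice of the list is not independent of the data, while Rgs6 and Pdzrn3 were named in a separate drug experiment. Of its 23 genes, 9 rose in high-Dcn nuclei, among them Rgs6, Pcdh7, Pcdh15, Gria4 and Rasgef1b (1.01 ± 0.06), 8 fell and 6 did not pass, beside 10.7% higher and 11.4% lower over all genes tested. Mef2c, a transcription factor of the MEF2 family (chr13:83504034-83667080, plus strand), ran from 39.2 through 106 to 324 CPM in high-Dcn nuclei and from 32.9 through 57.6 to 110.5 CPM in low-Dcn nuclei, at 0.89 ± 0.17 (adjusted p = 0.000833, edgeR). It was higher in 14 of 16 mice with overlapping ranges, and was not called in the P301S mice alone (0.54) nor in the libraries of Cell Ranger 3.1.0 alone (0.86). Granule nuclei held Mef2c at 356 CPM, inhibitory nuclei at 593 and oligodendrocyte nuclei at 93.9, beside 132 CPM pooled over the high-Dcn nuclei. Mef2a (-0.40 ± 0.05) and Mef2d (-0.15 ± 0.05) fell. Mef2d was not called against depth-matched nuclei (-0.09), by DESeq2 (-0.15), with at most 4000 genes (-0.18), with 3 UMIs of Dcn required (-0.11) or with at least 6 panel genes (-0.18). Nor was it called in the libraries of either Cell Ranger version alone, in the mice lacking or carrying P301S alone, or with some single mice left out. Of 32 interferon response genes only 8 were testable, of which Herc6 (0.62 ± 0.21) and Adar (0.24 ± 0.05) rose, Stat2 (-0.30 ± 0.10) fell and 5 did not pass, counts to be read against the same 10.7% and 11.4%. Stat2 was not called against depth-matched nuclei (-0.22), and Herc6 was not called by DESeq2 (0.59), without the filter on low counts (0.55), without P301S Cgas+/- replicate 2 (0.48) or without Cgas+/+ replicate 5 (0.59). Of the other list members, Gria2, Grik3, Sema3e, Unc5d, Gabrg1, Grm2, Htr1b, Htr2c and Sdc2 lost their call in 1 or more of the fits limited to libraries of 1 Cell Ranger version or to mice with or without P301S. Mapt, the mouse tau gene, stood at 0.03 ± 0.04 (adjusted p = 0.696, edgeR).

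**Figure D4:**
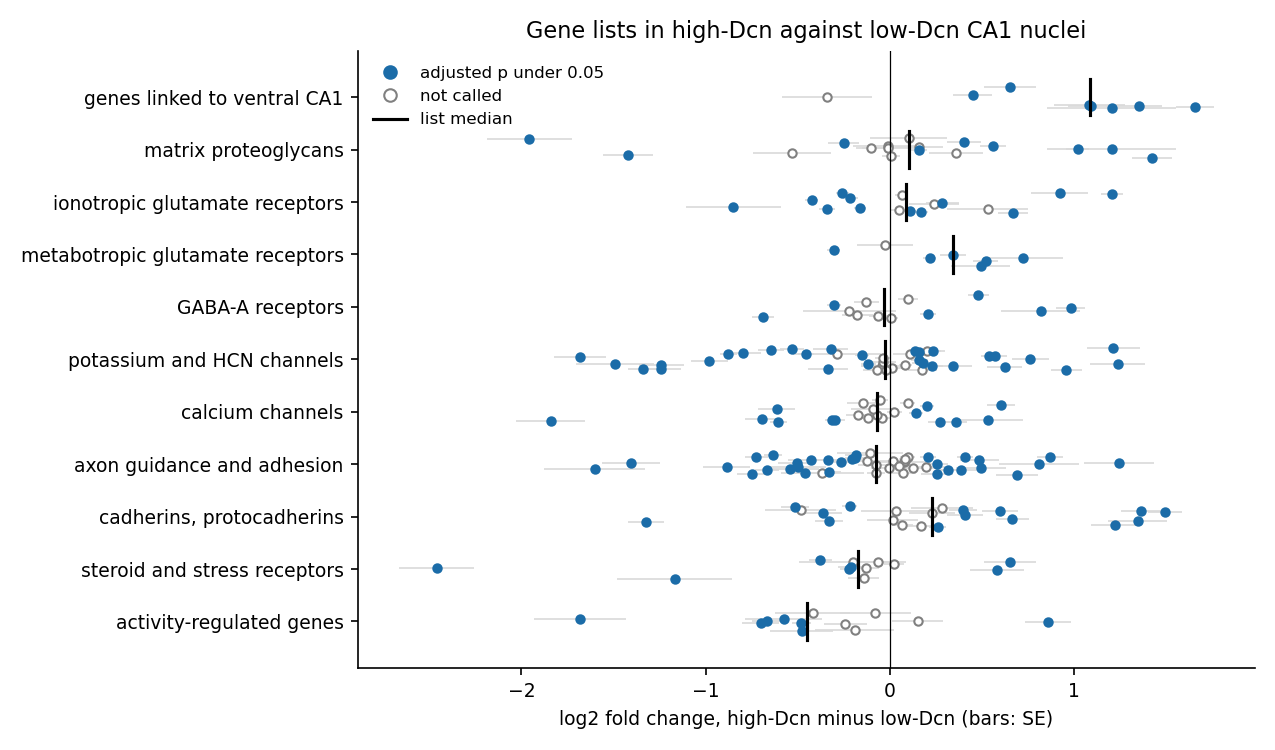
Log2 fold change between high-Dcn and low-Dcn CA1 nuclei with its SE for the tested members of 11 gene lists, 1 point per gene, filled where the adjusted p was under 0.05, with the list median as a black bar. The genes linked to ventral CA1 lie to the right of 0 except Col5a1, and the activity-regulated genes have their median at -0.45.

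High-Dcn nuclei were spread unevenly over mice. Of the 27 mice, 4 had none, 7 had 1 to 9 and 16 had at least 10, and the 5 mice with the most held 384 (46.8%). As a share of CA1 nuclei, the libraries labelled Cgas+/+ gave 9.33%, 0%, 7.39%, 4.59% and 9.47%, a mean of 6.16% ± 3.97 (SD, n = 5). Those labelled P301S Cgas+/+ gave 0% through a median of 4.44% to 6.32%, with a mean of 3.89% ± 2.51 (SD, n = 6), and P301S Cgas-/- gave 0.137% through 2.94% to 11.1%, with a mean of 3.67% ± 4.05 (SD, n = 6). The ranges of these 3 groups overlapped, although 3 of the 5 Cgas+/+ values lay above every P301S Cgas+/+ value. P301S Cgas+/- gave 0% through 1.06% to 13.98%, with a mean of 2.93% ± 5.45 (SD, n = 6), and its highest value, replicate 2 with 72 of 515 nuclei (95% Clopper-Pearson interval 11.1% to 17.3%), lay far above the next, replicate 5 with 1.504%. The small groups without P301S stood at 7.20% and 2.93% (Cgas+/-) and at 3.72% and 4.53% (Cgas-/-).

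Intervals on single shares cover counting error only. The 4 mice without a high-Dcn nucleus had 276, 503, 115 and 583 CA1 nuclei. A limit of 3 counts then allows shares of up to 1.09% (Cgas+/+ replicate 2), 0.596% (P301S Cgas+/+ replicate 3), 2.61% (P301S Cgas+/- replicate 1) and 0.515% (P301S Cgas+/- replicate 6), and the wider upper ends of the Clopper-Pearson intervals are 1.33%, 0.731%, 3.16% and 0.631% in the same order. All of these limits lie below the interval of Cgas+/+ replicate 1, where 101 of 1083 CA1 nuclei were high-Dcn (7.66% to 11.2%).

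**Figure D5:**
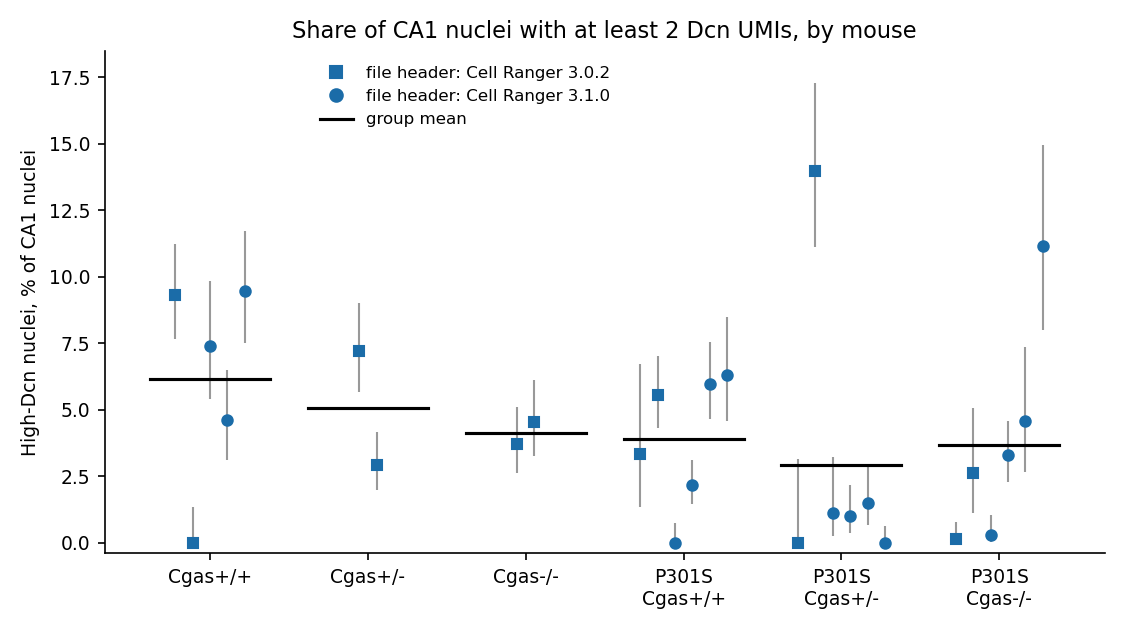
Percent of CA1 nuclei with at least 2 Dcn UMIs in each of 27 mice by genotype label, with 95% Clopper-Pearson intervals in gray, group means as black lines, and squares or circles for the Cell Ranger version of the library. Shares run from 0% to 13.98%, and the highest belongs to P301S Cgas+/- replicate 2.

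The share of high-Dcn nuclei did not differ between groups beyond the spread of mice. The tau contrast, P301S Cgas+/+ minus Cgas+/+, was -2.27 percentage points (exact two-sided permutation test, p = 0.268, adjusted over 3 contrasts 0.805). The deletion contrast, P301S Cgas-/- minus P301S Cgas+/+, was -0.217 points (exact permutation p = 0.911, adjusted 0.911), and the heterozygous contrast, P301S Cgas+/- minus P301S Cgas+/+, -0.956 points (exact permutation p = 0.768, adjusted 0.911). With 6 mice per group, as in the deletion and heterozygous contrasts, the smallest p possible is 0.00217. For tau, with 6 and 5 mice, it is larger. Single mice weighed heavily: without P301S Cgas+/- replicate 2 the heterozygous contrast was -3.17 points (exact permutation p = 0.0346, adjusted 0.104), and without Cgas+/+ replicate 2 the tau contrast was -3.81 points (exact permutation p = 0.0476, adjusted 0.143). Without P301S Cgas-/- replicate 6 the deletion contrast was -1.71 points.

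Within the 15 libraries of Cell Ranger 3.1.0 the tau contrast was -3.54 points and the deletion contrast 1.21 points, and within the 12 of version 3.0.2 they were -0.226 and -3.07 points, with 2 to 4 mice a group. All 12 libraries of version 3.0.2 came from male mice and the 15 of 3.1.0 from both sexes. A split by version is therefore in part a split by sex. Thinning every CA1 nucleus to 5000 UMIs lowered the mean shares to 2.07% (Cgas+/+), 1.35% (P301S Cgas+/+), 0.746% (P301S Cgas+/-) and 1.46% (P301S Cgas-/-). The level of Dcn summed over all CA1 nuclei, whatever their Dcn count, averaged 21.1 ± 15.0 CPM (SD, n = 5) in Cgas+/+ libraries, 13.1 ± 8.86 in P301S Cgas+/+, 8.23 ± 14.02 in P301S Cgas+/- and 11.2 ± 12.3 in P301S Cgas-/- (SD, n = 6 each). Its log2 fold changes were -0.62 ± 0.94 (tau), -0.20 ± 0.94 (deletion) and -0.76 ± 0.96 (heterozygous), none of which passed in a fit of 23 mice with sex as a covariate (adjusted p at least 0.9999, edgeR).

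The level of Adamtsl1 and Wfs1 in the other CA1 nuclei of a mouse was set beside its share of high-Dcn nuclei, as a description without a test, since both genes were chosen after the data had been seen and the share comes from the gate. Nuclei with a single Dcn UMI were left out, as they differ in both genes. Across 27 mice the share was higher with a higher level of Adamtsl1 in CA1 nuclei holding no Dcn UMI (Pearson r = 0.426, Spearman rho = 0.463), at r = 0.506 without the 2 mice farthest from the median share. Within the 12 libraries of Cell Ranger 3.0.2 and the 15 of 3.1.0 r was 0.273 and 0.549. The share was lower with a higher level of Wfs1 (r = -0.490, rho = -0.578), at r = -0.552 without the 2 farthest mice and -0.169 and -0.758 within the versions. Both relations were weaker in the 12 libraries of version 3.0.2, which were all of male mice, so version and sex are not told apart here. The share of all nuclei that were CA1 nuclei ran from 1.19% to 16.4% between mice, and its part in the share of high-Dcn nuclei was not tested.

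Group differences in expression inside high-Dcn nuclei were tested in 12 mice with at least 10 such nuclei, namely 4 Cgas+/+, 4 P301S Cgas+/+, 1 P301S Cgas+/- and 3 P301S Cgas-/- mice, with sex as a covariate. The Cgas+/- and Cgas-/- mice without P301S also had at least 10 such nuclei each and were left out of this fit. Of 8928 genes tested with edgeR, where gate genes were not left out, 1 (0.0112%) passed in the tau contrast and 0 (0%) in the deletion contrast. An unadjusted p under 0.05 was found for 278 and 296 genes. DESeq2 called 4 genes for tau and 1 for deletion, named here after their values were seen: Fhod3, Mef2c, Gm43049 and Ggta1 for tau, and Ggta1 for deletion. Its log2 fold changes for Ggta1 were extreme, at -22.7 for tau and 23.6 for deletion, beside -1.97 for Fhod3 and -1.46 for Mef2c. edgeR called Ggta1 in neither contrast. The heterozygous contrast holds a single P301S Cgas+/- mouse, replicate 2, whose share of high-Dcn nuclei stood apart. The fit assumes that it varies like the mice of the other groups, so the contrast compares that library with the P301S Cgas+/+ mice and is no test of the genotype.

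The gene that passed was Fhod3, a formin that assembles actin filaments. Its level in the high-Dcn nuclei of the libraries labelled Cgas+/+ was 37.9, 124, 136 and 87.2 CPM, and in those labelled P301S Cgas+/+ it was 25.7, 17.6, 22.6 and 22.9 CPM. Fhod3 was lower by 1.95 ± 0.30 on the log2 scale in P301S Cgas+/+ mice (adjusted p = 0.0221, edgeR). These values did not overlap, but how many of all genes tested separate the 2 groups in this way was not counted. P301S Cgas-/- libraries held 53.7, 50.4 and 62.0 CPM and the lone P301S Cgas+/- library 17.9 CPM. The 2 Cgas+/- libraries outside the fit held 83.6 and 17.3 CPM and the 2 Cgas-/- libraries 64.5 and 37.1 CPM, so values without P301S reached down into the P301S Cgas+/+ range.

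The Fhod3 call depended on the setting. It was kept with DESeq2 (-1.97, adjusted p = 0.000699) and in edgeR fits with RLE size factors (-1.95), without the filter on low counts (-1.97), with the Cell Ranger version as a term (-1.88) and in the libraries of version 3.1.0 alone (-2.39). In edgeR fits of nuclei with at most 4000 genes (-1.57), without likely doublets (-1.81), with all 6 groups (16 mice, -1.95), with only the 2 groups compared (-1.95) or without the sex term (-1.998) it did not pass, and leaving out 1 of 9 of the 12 mice also ended it. In low-Dcn nuclei Fhod3 stood at -0.54 ± 0.49 (adjusted p = 0.9999, edgeR), and the difference between the classes, tested as an interaction, was -1.41 ± 0.30 with an adjusted p of 0.637 (edgeR). Without the filter on low counts the interaction was called (-1.42, adjusted p = 2.02e-05, edgeR), and against depth-matched low-Dcn nuclei it was not (-1.12).

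The next genes by p did not pass in the tau or deletion contrast of the edgeR fit with the filter on low counts. For tau they included Gm43049 (adjusted p = 0.194, edgeR), Gsg1l (-1.43 ± 0.34) and Stxbp6 (0.93 ± 0.23). Gm43049, whose transcript marks the transgene libraries, held 0 UMIs in the high-Dcn nuclei of all 8 mice lacking P301S and 18, 3, 12 and 2 UMIs in those of P301S Cgas+/+, and in low-Dcn nuclei it was called (adjusted p = 3.59e-06, edgeR). For deletion they were A330008L17Rik (1.19 ± 0.28), AC163285.1, Cuedc1 (-1.16 ± 0.30), Hnrnph1 (-1.20 ± 0.33) and Gpn1 (-1.85 ± 0.52). Without the filter edgeR called Gm43049 and Gsg1l (-1.45) for tau and A330008L17Rik (1.18) and AC163285.1 for deletion, and DESeq2 called Gm43049. In the comparison with the single P301S Cgas+/- library the next genes by p were Col23a1 (2.08), Cntnap2 (-1.14), Col25a1 (-1.29), Stxbp6 (-1.65) and Sorcs1 (-1.32), given as values of that library.

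No member of the gene lists passed in the high-Dcn nuclei in the tau or deletion contrast of edgeR with the filter on low counts. Without that filter edgeR called Htr2c for deletion (-1.27, adjusted p = 0.0106) and Gm43049 for tau, which DESeq2 called too. Mef2c did not pass, at -1.48 ± 0.33 in the tau contrast (adjusted p = 0.853, edgeR) and 0.74 ± 0.40 in the deletion contrast, although DESeq2 called it for tau (-1.46, adjusted p = 0.0344) and so did edgeR without the filter on low counts. In all CA1 nuclei together Mef2c stood at -0.48 ± 0.39 in the tau contrast (adjusted p = 0.9999, edgeR) and 0.49 ± 0.37 in the deletion contrast, and passed in neither. Its levels in high-Dcn nuclei were 116, 324, 208 and 136 CPM in Cgas+/+ and 80.1, 55.0, 51.2 and 63.4 CPM in P301S Cgas+/+ libraries. The Cgas+/- and Cgas-/- libraries without P301S are outside this fit and are not included here. P301S Cgas-/- libraries held 143, 39.2 and 161 CPM, the lowest of which lay below both of those groups and the others within the Cgas+/+ range. The 10 testable interferon response genes had a median of 0.78 in the tau contrast and -0.52 in the deletion contrast, beside 0.01 and -0.02 over all genes, and 1.18 in the comparison with the single P301S Cgas+/- library, beside -0.003. All 3 share the P301S Cgas+/+ mice. The 7 ventral CA1 genes tested had medians of -0.28 and -0.43 in the tau and deletion contrasts and 0.40 for that library minus the same mice.

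Whether genotype differences were unlike in high-Dcn and low-Dcn nuclei was tested as an interaction over 10426 genes. None passed in the tau or deletion contrast (0% each, edgeR), and 346 and 415 genes had an unadjusted p under 0.05. The smallest p belonged to Hs3st5 in the tau contrast (-1.54 ± 0.34, adjusted p = 0.637, edgeR), to the glutamate transporter Slc1a2 in the deletion contrast (-0.93 ± 0.19, adjusted p = 0.460, edgeR). The heterozygous interaction rests on the same single library, and St18 had its smallest p (-2.17). In all CA1 nuclei together, 4 of 14106 genes passed in the tau contrast, all higher in P301S Cgas+/+ (Gm43049, 4930590L14Rik, Gm32754 and Prn), and 0 in each of the others, where 553 and 421 genes had an unadjusted p under 0.05.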

How the data were processed

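The authors deposited raw UMI counts by gene and barcode, made with Cell Ranger from 10x 3' v3 libraries of sorted hippocampal nuclei by counting pre-mRNA reads on mm10. The submitters' processing notes name Cell Ranger 3.1.0 and Seurat 3.0, and the file headers name Cell Ranger 3.0.2 in 12 libraries and 3.1.0 in 15. The deposited counts were neither normalized nor filtered further. The study's own upper limit of 4000 genes and its doublet removal were replaced by the gate given in the results and tried as alternatives, and its test over single nuclei (MAST) by tests over mice.

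Counts were summed per mouse and class with Python 3.11.15, and CPM are counts per 1000000 UMIs of the class. Doublets were ranked with Scrublet (scanpy 1.11.5) and the highest scores taken at 0.8% per 1000 barcodes. Sums were tested with edgeR 4.0.16 (quasi-likelihood, robust, TMM, filterByExpr, R 4.3.3) in mice with at least 10 nuclei, and Benjamini-Hochberg adjusted p under 0.05 counted as called. SE is the log2 fold change divided by the root of F. Gate and mitochondrial genes were left out of the comparison of the classes and of the interaction, but not of the group contrasts. Matching drew up to 3 low-Dcn nuclei per high-Dcn nucleus of the same mouse from the same bin of 0.25 log2 UMIs. Permutation tests of shares were exact.

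The genes named are the 12 highest and 12 lowest log2 fold changes among those called with the same sign against all and against depth-matched low-Dcn nuclei, with at least 10 CPM in the higher class, the 5 of smallest p in each group contrast, members of the gene lists, and the genes of the gate and pathway. A few genes that these rules name are not reported here. The members, the gene lists and these rules were chosen with earlier results of these data known. Positions come from GENCODE vM21 (GRCm38, the assembly of mm10), which matched 30934 of 31053 gene IDs. Scripts were tested on simulated data. No sequence is shown, since none bears on these results.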

Additional observations from a re-analysis of the deposited data

Results flagged for a closer look

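In 35 groups of 4 to 10 mice whose values were examined, 2 values stood apart from the rest of their group by Dixon's criterion, which chance does in about 1 group in 20. Both belong to P301S Cgas+/- replicate 2 and come from the Dcn counts of the same CA1 nuclei, so they are not independent of each other. Its share of CA1 nuclei with at least 2 Dcn UMIs was 13.98%, against 1.504% in the next of the 6 mice, a gap of 0.892 of the whole range. Its level of Dcn over all CA1 nuclei was 36.5 CPM, against 5.55 CPM in the next mouse, a gap of 0.848 of the range. It was also the only P301S Cgas+/- mouse with at least 10 high-Dcn nuclei, so the heterozygous contrast within high-Dcn nuclei rests on this library alone.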

How the results depend on the processing

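The genes called between high-Dcn and low-Dcn nuclei (1126 higher and 1204 lower) ranged from 1049 to 1146 and from 1086 to 1188 with 1 mouse left out. Without the filter on low counts 820 were higher and 1820 lower. Fits with fewer mice called fewer, with 713 higher in the libraries of Cell Ranger 3.0.2, 651 higher and 680 lower in those of 3.1.0, 633 higher in mice lacking P301S, and 662 higher and 724 lower in mice carrying it. The libraries of 3.0.2 were all of male mice. Over 107 named genes, 3120 of 3268 values under other settings kept their direction and side of the threshold, 142 lost the call, 1 gained it and 5 changed sign. Those were Mapt without the filter (-0.0492), in 3.1.0 libraries (-0.0066) and in P301S mice (-0.0527), and Spink8 with 3 Dcn UMIs (0.0649) and in 3.0.2 libraries (0.0064).

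In the group contrasts within high-Dcn nuclei, tau called 4 genes with DESeq2, 14 without the filter, and 0 with at most 4000 genes, doublets removed, 3 Dcn UMIs, 6 panel genes, all 6 groups (16 mice), only the 2 groups compared, no minimum of nuclei or no sex term, and 0 to 1 with 1 mouse left out. The 14 include Galntl6, mt-Co2, mt-Atp6 and mt-Cytb, genes that the gate read and that say nothing apart from it. Deletion called 1 gene with DESeq2 and 6 without the filter, and 0 to 0 with 1 mouse left out. The heterozygous contrast holds 1 P301S Cgas+/- library, so its counts of genes called are not given. Col23a1 stood at 2.085 without the filter, 2.31 with only the 2 groups and 2.34 without P301S Cgas+/+ replicate 5, where Gpc3 stood at 4.24. The interaction called 6 (tau) and 8 (deletion) genes without the filter and 0 with any mouse left out. Col25a1 in the heterozygous contrast turned to 0.0917 with no minimum of nuclei. The cause was not tested.

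The deletion contrast of the share (-0.217 points) turned to 0.115 (nuclei thinned to 5000 UMIs), 0.372 (3 Dcn UMIs) and 1.21 (3.1.0 libraries), and the heterozygous one (-0.956) to 2.55 in 3.0.2 libraries. With 1 mouse left out the shares' contrasts ran from -3.81 to -1.44 (tau), -1.71 to 0.490 (deletion) and -3.17 to -0.370 (heterozygous), and those of Dcn in all CA1 nuclei from -1.09 to -0.39, -1.19 to 0.35 and -2.18 to -0.33. Without P301S Cgas+/- replicate 2 the heterozygous contrast in high-Dcn nuclei could not be fitted, and 3.1.0 libraries gave no value for it. No paired analysis was possible because replicate numbers were given in accession order and name no animal shared between genotype groups, which touches the group contrasts only. The fits within high-Dcn nuclei rest on 16 to 101 such nuclei per mouse.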
